A study of Mus musculus with 62 samples.

Results

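*Ckm*, *Ldha*, *Glul*, *Gsn*, *Bsg*, *Csnk2a1*, *Crip2*, *Anapc13*, *Hcfc1r1* and *Mpc1* are 10 nuclear genes that do not encode subunits of the respiratory chain. They were chosen by the ribosome occupancy of their Pro or Ala codons, which the study listed as raised at the ribosomal A-site in Ribo-seq of the heart of RPL3L-deficient mice relative to that of control mice. All 10 were found among the 10476 gene names of the deposited counts, and each is represented by the transcript with the highest mean count in the heart. Because Ribo-seq of these hearts selected the genes, their heart Ribo-seq values, and every ratio that contains them, are given as a description with no test. RNA-seq and Disome-seq of the heart, m6A-seq and the cell experiments did not enter the choice and were tested. The codon occupancies themselves were not analysed here.

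RPL3L is a form of the large ribosomal subunit protein RPL3 that heart and skeletal muscle produce from a gene of its own. The hearts were from *Rpl3l*+/+ (WT) and *Rpl3l*-/- (KO) mice of the C57BL/6J strain at 10 weeks of age, with a germline deletion of a coding exon that shifts the reading frame of *Rpl3l* in all tissues of the KO mice. RNA-seq, Ribo-seq and Disome-seq were performed with 4 mice per genotype and m6A-seq with 3 per genotype. C2C12 mouse myoblasts, a proliferating skeletal muscle precursor line, had been infected with a retrovirus carrying mouse RPL3 (called RPL3 OE), with one carrying RPL3L (called RPL3L OE), or with the empty retrovirus (control) and selected with puromycin, and 3 cultures of each were analysed by RNA-seq and Ribo-seq.

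The ribosome adds an amino acid each time a matching aminoacyl-tRNA is accepted in its A-site, and a codon at which this step is slow holds ribosomes for longer and so collects more footprints. Proline reacts slowly in peptide bond formation. When a trailing ribosome runs into a halted one, the pair protects a longer stretch of mRNA, a disome, which Disome-seq collects, whereas Ribo-seq collects the footprints of single ribosomes (monosomes).

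The genes serve different functions. *Ckm* encodes the muscle creatine kinase, which regenerates ATP from phosphocreatine, and *Ldha* the lactate dehydrogenase subunit that favours lactate formation. *Mpc1* encodes a subunit of the carrier that brings pyruvate into mitochondria, *Bsg* the membrane protein basigin, a chaperone of lactate transporters, and *Glul* glutamine synthetase. *Gsn* encodes gelsolin, which severs and caps actin filaments, *Crip2* a LIM domain protein, *Csnk2a1* a catalytic subunit of protein kinase CK2, *Anapc13* a subunit of the anaphase-promoting complex and *Hcfc1r1* a regulator of the transcriptional coregulator HCF1.

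Stretches of 10 codons are shown for the 6 genes to which the Disome-seq, translation efficiency and codon results below mainly refer. Each is the first stretch within 1 exon that holds the most Pro and Ala codons (in capitals). They were found by codon count and are not the codons at which delay was measured. All lie on the plus strand of GRCm38, in coding exons of the GENCODE M21 transcripts.

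*Csnk2a1*, exon 13, codons 380 to 389, chr2:152279046-152279075: gggataCCTgttCCAGCTGCTGCTggcGCT
*Hcfc1r1*, exon 3, codons 105 to 114, chr17:23674969-23674998: CCCagtCCCtactacCCTGCGtccCCAGCT
*Bsg*, exon 1, codons 1 to 10, chr10:79704518-79704547: atgGCGGCGGCGctgctgctgGCGctgGCC
*Mpc1*, exon 1, codons 1 to 10, chr17:8283891-8283920: atgGCTggaGCGctggtgcgcaaaGCGGCG
*Glul*, exon 6, codons 235 to 244, chr1:153907385-153907414: ataGCAacctttgacCCCaagCCCattCCA
*Crip2*, exon 2, codons 50 to 59, chr12:113143563-113143592: aagCCCttctgccacaagCCCtgctatGCC

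*Csnk2a1* and *Hcfc1r1* each place 6 Pro or Ala codons within 10, the first near the COOH-terminal end of a protein of 391 codons and the second likewise in a protein of 120 codons. Such stretches are common: 69.7% of genes had fewer than 6 in their densest 10 codons, and the others as many or more. Counted without regard to exons, the densest 10 codons held a median of 4 in the 10 genes, compared with 5 over all genes. The stretches of *Bsg* and *Mpc1* begin at the start codon and contain Ala codons but no Pro codon. Over the whole coding sequence, the share of Pro and Ala codons in the 10 genes had a median of 13.9%, compared with 12.2% over 10448 genes. *Hcfc1r1* was at 22.5%, with 16.7% Pro codons, a Pro share above that of 99.2% of genes, and *Crip2* had 10.1% Pro codons. *Mpc1* had 11.01% Ala codons, above 94.2% of genes, *Gsn* 9.23% and *Bsg* 8.997%. *Ckm* and *Ldha* were at the other end, with 8.92% and 8.86% Pro and Ala codons together, so that only 14.5% and 14.2% of genes had a smaller share. The genes chosen by raised occupancy thus included both Pro- or Ala-rich and Pro- and Ala-poor coding sequences.

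Total counts per library over the transcripts analysed were 3594696 to 22425296 for heart RNA-seq, 1606700 to 3192090 for heart Ribo-seq, 39016 to 175747 for Disome-seq, 205499 to 660116 for m6A-seq, 7647102 to 29746110 for C2C12 RNA-seq and 3167026 to 6093268 for C2C12 Ribo-seq. *Rpl3l* was at 369 to 541 CPM (counts relative to library size, with library sizes scaled by TMM factors within each tissue and assay) in WT and 24.4 to 40.4 CPM in KO heart RNA-seq, and at 0.132 to 0.821 CPM in control and RPL3 OE cells and 1985 to 2045 CPM in RPL3L OE cells; *Rpl3* was not analysed here, so the RPL3 OE label was not checked. All 6 cardiomyocyte markers that could be read were present in each heart group, and 4 of them (*Pln*, *Mybpc3*, *Nppa* and *Myl3*) were at 0 in control C2C12 cells, while of 5 myoblast markers that could be read *Myog*, *Myod1* and *Cdh15* were at 0 in heart RNA-seq but the 5 together were higher in WT hearts (1756 to 1966 CPM) than in control cells (695 to 713 CPM). Airway epithelial markers, summed over 8 genes, exceeded 100 CPM in 2 WT and 2 KO libraries of each heart assay (WT 2 and 4 in all 3, with KO 1 and 3 in RNA-seq and KO 1 and 2 in Ribo-seq and Disome-seq) and reached 1637 CPM in RNA-seq and 3579 CPM in Disome-seq, with *Sftpb* at 0 in WT RNA-seq. Their part in the results was not tested, and heart values without these libraries are given beside each assay. Since the markers were in KO 3 in RNA-seq but in KO 2 in the other assays, it is unsure whether these 2 numbers denote the same mice across assays, and the numbers were kept as labelled.

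RNA-seq of the heart addressed whether loss of RPL3L altered the abundance of the 10 mRNAs. No change passed the test. The log2 fold change of KO relative to WT ranged from −0.10 for *Crip2* to 0.14 for *Gsn*, with a median of 0.04 compared with 0.00 over all 15394 transcripts tested. Each gene had an adjusted p of 0.9995 in edgeR (quasi-likelihood, Benjamini-Hochberg), and none was called by DESeq2. Of all transcripts tested, 2 (0.013%) passed in edgeR, 352 had an unadjusted p under 0.05, and 11 passed in DESeq2. For bulk tissue, fewer cells of a type and less RNA per cell cannot be told apart.

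*Ckm* mRNA was at 3177, 3216, 3048 and 3894 CPM in the 4 WT hearts and at 3673, 4058, 2891 and 3511 CPM in the 4 KO hearts. The highest WT heart exceeded 3 of the KO hearts and the lowest value was from a KO heart, so that the groups overlapped. The log2 difference was 0.08, with an approximate 95% interval of −0.17 to 0.34. *Crip2* mRNA was at 1378, 1482, 1240 and 1369 CPM in WT and 1278, 1443, 1082 and 1295 CPM in KO hearts. The groups again overlapped, and the log2 difference was −0.10, with an interval of −0.33 to 0.13. For none of the 10 genes were the WT and KO libraries separate, compared with 1.64% of all transcripts tested. The widest intervals belonged to *Csnk2a1* (−0.38 to 0.24), *Anapc13* (−0.21 to 0.39) and *Gsn* (−0.14 to 0.43). Without the libraries with airway markers, the values ran from −0.28 for *Csnk2a1* to 0.37 for *Anapc13*, and none passed (edgeR adjusted p = 0.998 for each, Benjamini-Hochberg). The signs of *Glul* (−0.18), *Crip2* (0.06) and *Mpc1* (0.09) then changed.

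Per kilobase of coding sequence, the scale on which levels of different genes can be compared here, *Ckm* had the most abundant of the 10 mRNAs in WT hearts, at 2917 ± 333 CPM per kb (SD, n = 4), rank 23 of 5889 genes. *Crip2* followed at 2191 ± 159 (rank 28), *Bsg* at 1511 ± 56.5 (rank 43), *Mpc1* at 1186 ± 107 (rank 61), *Anapc13* at 720.5 ± 124, *Ldha* at 644 ± 42.8, *Hcfc1r1* at 424 ± 55.0, *Gsn* at 330.0 ± 74.0, *Glul* at 249 ± 40.2 and *Csnk2a1* at 50.3 ± 10.7 CPM per kb (rank 1112). The ranges over the 4 hearts overlapped between *Anapc13* and *Ldha*, between *Hcfc1r1* and *Gsn* and between *Gsn* and *Glul*. The other neighbours in this order did not overlap. The kinase subunit thus stood below the metabolic enzymes and below the other mRNAs of the group.

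**Figure D1:**
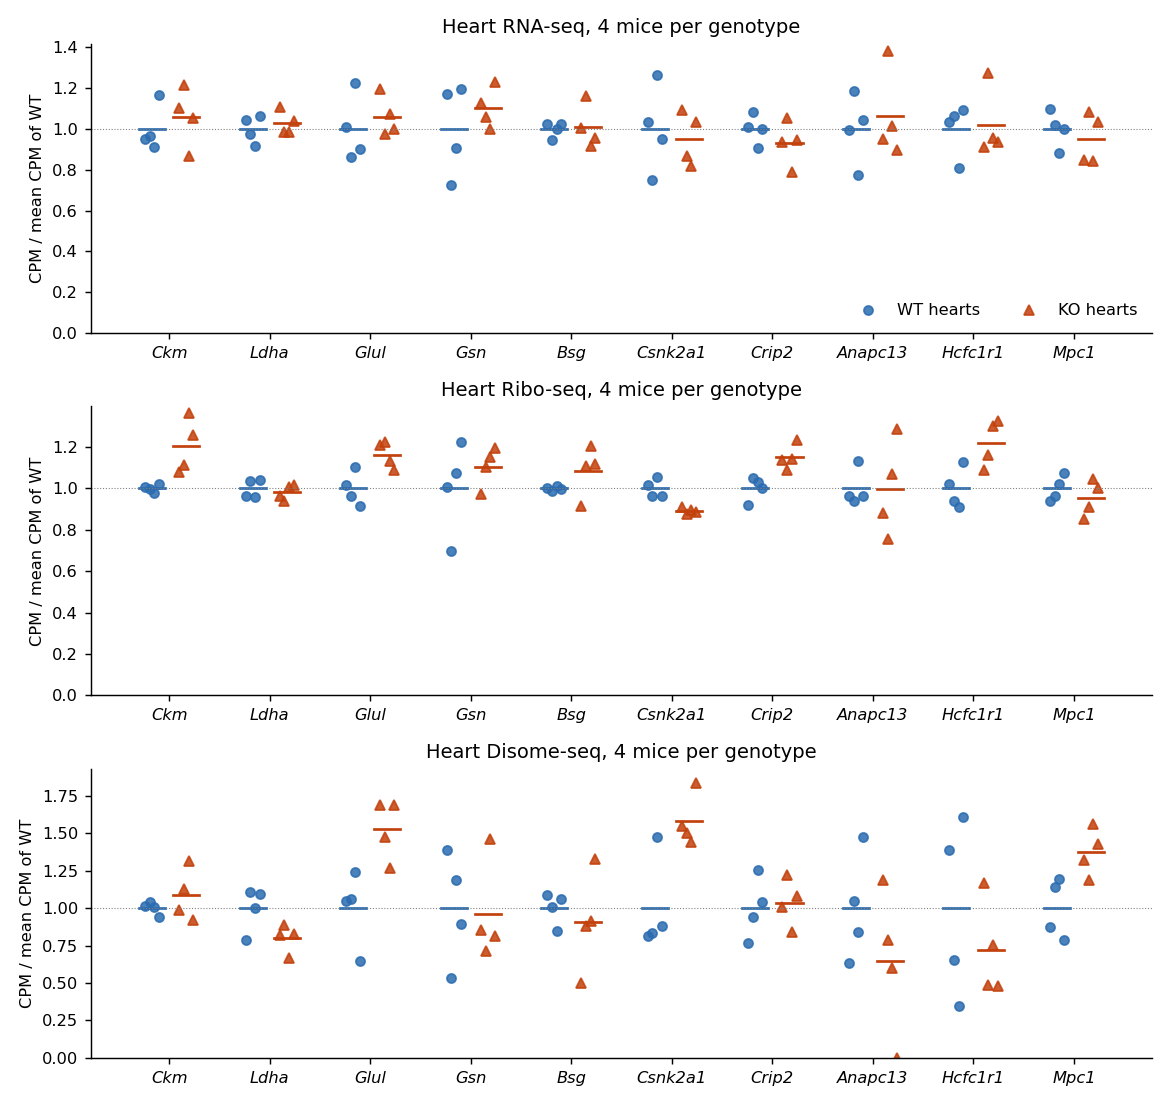
CPM of each gene in each heart library divided by the mean of the WT libraries, in panels by assay; circles are WT hearts, triangles KO hearts (4 mice per genotype) and lines group means. WT and KO points overlap for all 10 genes in RNA-seq, whereas in Disome-seq the KO points of *Glul* lie above all WT points.

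Ribosome footprints of the heart are described without a test, because codon occupancy in these libraries chose the genes. *Ckm* footprints were at 2661, 2637, 2588 and 2704 CPM in WT hearts and at 2853, 2945, 3608 and 3332 CPM in KO hearts, and *Crip2* footprints at 1236, 1411, 1389 and 1347 CPM in WT and 1528, 1468, 1536 and 1658 CPM in KO hearts. Both were higher in each KO heart than in each WT heart. *Csnk2a1* showed the opposite order, with 201, 191, 209 and 190.0 CPM in WT and 180, 173, 177 and 175 CPM in KO hearts. The groups of the other 7 genes overlapped, and over all transcripts 9.92% had groups that did not, a value from which nothing is read here.

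On the log2 scale, footprints in KO relative to WT hearts were at 0.29 ± 0.10 (SE) for *Hcfc1r1*, 0.27 ± 0.08 for *Ckm*, 0.22 ± 0.08 for *Glul*, 0.20 ± 0.08 for *Crip2*, 0.15 ± 0.13 for *Gsn* and 0.12 ± 0.09 for *Bsg*. Values near or below 0 were found for *Anapc13* (−0.01 ± 0.14), *Ldha* (−0.03 ± 0.07), *Mpc1* (−0.07 ± 0.09) and *Csnk2a1* (−0.17 ± 0.08). Without the libraries with airway markers, which leaves 2 mice per genotype, the values were 0.44 for *Hcfc1r1*, 0.40 for *Ckm*, 0.28 for *Crip2*, 0.21 for *Bsg* and −0.22 for *Csnk2a1*, while *Gsn* and *Anapc13* were each at 0.17, *Glul* and *Ldha* at 0.07 and *Mpc1* at 0.06. Only *Csnk2a1* was then below 0, and *Anapc13*, *Ldha* and *Mpc1* had changed sign.

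Translation efficiency (TE), the ratio of Ribo-seq to RNA-seq reads, in KO relative to WT hearts was highest on the log2 scale for *Crip2* (0.31 ± 0.14, SE), followed by *Hcfc1r1* (0.26 ± 0.18) and *Ckm* (0.19 ± 0.16). For the other 7 genes it ran from −0.10 ± 0.23 for *Anapc13* to 0.13 ± 0.15 for *Glul*. This order did not hold without the libraries with airway markers, where *Glul* was highest at 0.25, followed by *Crip2* at 0.22, *Hcfc1r1* at 0.18, *Bsg* at 0.15 and *Ckm* at 0.12, and *Anapc13* was lowest at −0.20. As levels, TE in WT hearts ran from 0.497 ± 0.048 (SE) for *Anapc13* to 3.35 ± 0.37 for *Csnk2a1*, around a median over 5275 genes of 1.46. *Csnk2a1*, the least abundant mRNA, thus had the highest TE of the 10, above that of 88.2% of genes. *Ckm* (0.794 ± 0.046) and *Bsg* (0.815 ± 0.016), both with abundant mRNAs, were below the median in WT hearts and likewise in KO hearts (0.901 ± 0.079 and 0.876 ± 0.068, median 1.503).

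**Figure D2:**
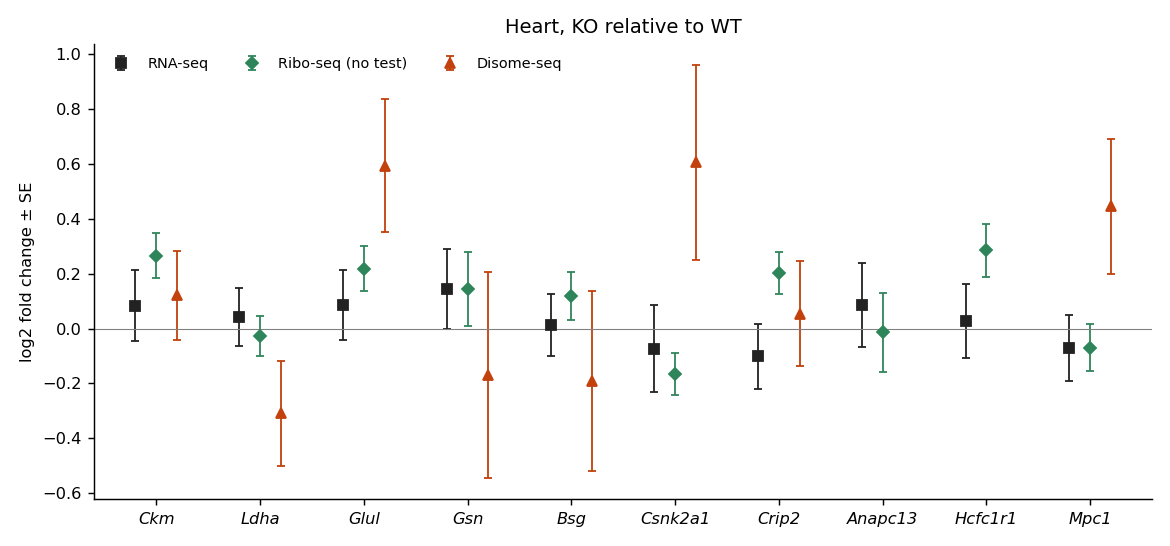
Log2 fold change (± SE) of KO relative to WT hearts in RNA-seq, Ribo-seq and Disome-seq, with 4 mice per genotype in each; *Anapc13* and *Hcfc1r1* were below the count minimum in Disome-seq. RNA-seq points lie between −0.10 and 0.14, and the Disome-seq points of *Glul*, *Csnk2a1* and *Mpc1* lie above 0.4.

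Disome-seq addressed whether ribosome collisions on these mRNAs changed without RPL3L. Per the methods, RNA of digested heart lysates was selected by size, shorter fragments for Ribo-seq and longer ones for Disome-seq. Libraries of the same mouse numbers also carried the airway markers in both assays, so the 2 assays probably share hearts. The Disome-seq libraries themselves did not choose the genes, but their tests may not be independent of that choice. No gene of the group passed the test in edgeR. The largest differences were those of *Csnk2a1*, *Glul* and *Mpc1*, all higher in the KO heart. Over all 1365 transcripts tested, 0 (0%) passed in edgeR and 0 in DESeq2, with 60 at an unadjusted p under 0.05 in edgeR. *Anapc13* (0 to 14 counts per library) and *Hcfc1r1* (2 to 22 counts) were below the mean of 10 counts needed for the test.

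*Glul* disome footprints were at 710.1, 719, 844 and 440.3 CPM in WT hearts and at 1144, 999, 858 and 1146 CPM in KO hearts. All 4 KO hearts were above all 4 WT hearts, by a narrow margin for the closest pair, and *Glul* was the only gene of the 10 with separate groups, compared with 2.78% of transcripts tested. The log2 fold change was 0.59 ± 0.24 (SE), with an unadjusted p of 0.027 and an adjusted p of 0.939 in edgeR with Benjamini-Hochberg adjustment over all transcripts. The counts behind it were 18 to 101 per WT library and 43 to 203 per KO library. Glutamine synthetase mRNA was at 281, 240.2, 340.4 and 251 CPM in the WT and 333, 271, 299 and 278 CPM in the KO hearts, and those groups overlapped. Without the libraries with airway markers, the Disome-seq value was 0.45 and its unadjusted p in edgeR 0.368, with 2 mice per genotype.

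*Csnk2a1* disome footprints were at 112.5, 116, 204 and 122 CPM in WT hearts and at 214, 208, 199.6 and 255 CPM in KO hearts. WT 3 stood within the KO range, while the other WT hearts were all lower than each KO heart. The log2 fold change was 0.61 ± 0.36 (SE; edgeR adjusted p = 0.939, Benjamini-Hochberg) and was 0.99 without WT 3 (edgeR unadjusted p = 0.0360, adjusted p = 0.495). These values rest on 5 to 38 counts per library. The footprints of single ribosomes on the same mRNA were lower in the KO hearts, as given above.

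For *Mpc1*, disome footprints were at 513, 672, 705 and 465 CPM in WT hearts and 778, 697, 918 and 840.5 CPM in KO hearts. Only the lowest KO heart fell within the WT range, and the log2 fold change was 0.45 ± 0.25 (SE; edgeR adjusted p = 0.939, Benjamini-Hochberg). *Ldha* differed in the other direction, at 1533, 2155, 1947 and 2128 CPM in WT and 1595, 1717, 1297 and 1605 CPM in KO hearts. Its groups overlapped through WT 1, and its log2 fold change was −0.31 ± 0.19. The values of *Ckm* (0.12 ± 0.16), *Crip2* (0.05 ± 0.19), *Gsn* (−0.17 ± 0.38) and *Bsg* (−0.19 ± 0.33) were no larger than their SE. Across the 8 genes over the count minimum, 5 values were positive and 3 negative, with a median of 0.09 compared with −0.06 over all transcripts tested. When the libraries with airway markers were left out, *Bsg* turned to 0.30 and *Crip2* to −0.003. *Mpc1* was then at 0.62, *Csnk2a1* at 0.60, *Ckm* at 0.25, *Gsn* at −0.05 and *Ldha* at −0.18, and none passed in edgeR.

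The disome ratio, the Disome-seq CPM of a gene divided by its Ribo-seq CPM, ordered the 10 mRNAs differently from their abundance. Each assay is scaled to its own libraries, so the ratio is relative and is not a number of disomes per monosome. Medians and ranks are over genes averaging 10 or more counts in both assays, so mRNAs with few disome counts are missing from them. In WT hearts the disome ratio was 2.32 ± 0.18 (SE) for *Ldha* and 2.01 ± 0.21 for *Crip2*, both above the median of 1.23 over 628 genes. *Ckm* (1.24 ± 0.03) and *Glul* (1.12 ± 0.15) were near that median. *Gsn* (0.115 ± 0.025) was below every other of these 628 genes, and *Bsg* (0.3205 ± 0.017) was above 1.75% of them.

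In KO hearts the first and last 2 genes kept their places and the 6 between them changed theirs, with *Ldha* at 1.89 ± 0.11 and *Crip2* at 1.81 ± 0.15 at the top and *Gsn* at 0.1002 ± 0.018 at the bottom, around a median of 1.16 over 630 genes. *Csnk2a1* was at 0.7015 ± 0.11 in WT and 1.24 ± 0.07 in KO hearts, *Mpc1* at 0.831 ± 0.087 and 1.197 ± 0.089, and *Glul* at 1.12 ± 0.15 and 1.47 ± 0.11. The fitted log2 differences of this ratio were 0.73 ± 0.26 (SE), 0.48 ± 0.20 and 0.33 ± 0.22, and they are given with no test, because Ribo-seq of these hearts is their denominator. Without WT 3, the value of *Csnk2a1* was 1.14. The other 5 genes over the count minimum had lower ratios in KO hearts, from −0.17 for *Ckm* and *Crip2* to −0.43 for *Gsn*. Without the libraries with airway markers, *Bsg* turned from −0.40 to 0.11, and the values of *Csnk2a1*, *Mpc1* and *Glul* were 0.87, 0.59 and 0.41.

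**Figure D3:**
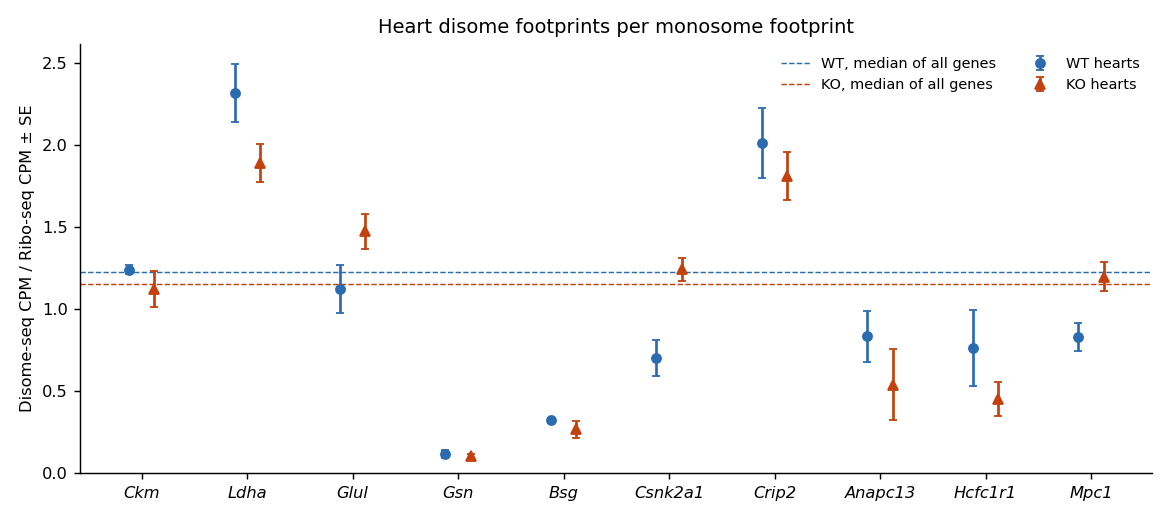
Disome-seq CPM divided by Ribo-seq CPM (± SE, 4 libraries of each assay per genotype) for each gene in WT and KO hearts, with dashed lines at the median over 628 (WT) and 630 (KO) genes. *Ldha* and *Crip2* lie above both medians and *Gsn* and *Bsg* far below them.

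The C2C12 experiment addressed the opposite manipulation, the gain of RPL3L in cells that hardly express it, with RPL3 OE as the paralog control. The comparisons of RPL3L OE and RPL3 OE cells with control share the 3 control cultures, so their values are set side by side and the direct comparison of the 2 OE cells is given as its own test. *Ckm* was barely expressed (2 to 27 RNA-seq counts and 5 to 13 Ribo-seq counts per library) and was below the count minimum in all C2C12 comparisons, which leaves 9 genes.

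TE of *Crip2* fell in RPL3L OE cells and was the only 1 of the 9 genes called, compared with 2.08% of all transcripts tested. *Crip2* footprints were at 652, 672 and 661 CPM in control cells, 579, 612 and 643 CPM in RPL3 OE cells and 596, 594.5 and 572 CPM in RPL3L OE cells, whereas its mRNA was at 376, 377 and 369, at 399.8, 402 and 388.5 and at 379, 400.5 and 422 CPM, respectively. Both OE groups had fewer footprints and more mRNA than each control culture. As a level, TE was 1.77 ± 0.02 (SE) in control, 1.54 ± 0.05 in RPL3 OE and 1.47 ± 0.05 in RPL3L OE cells. The log2 fold change in RPL3L OE relative to control cells was −0.28 ± 0.06 (SE; edgeR adjusted p = 0.00833, Benjamini-Hochberg).

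The value of *Crip2* in RPL3 OE relative to control cells was −0.20 ± 0.06 (edgeR adjusted p = 0.307, Benjamini-Hochberg), and DESeq2 called it (adjusted p = 0.0493), as did edgeR without RPL3 OE culture 3 (adjusted p = 0.0347). Directly compared, the 2 OE cells differed by −0.07 ± 0.06 (edgeR adjusted p = 0.770, Benjamini-Hochberg), with an interval of −0.20 to 0.05, so that a change particular to RPL3L was not shown. The call in RPL3L OE cells was lost without control culture 3 (edgeR adjusted p = 0.0559) or without RPL3L OE culture 3 (edgeR adjusted p = 0.140), with log2 fold changes of −0.27 and −0.22. The described TE of *Crip2* in KO hearts (0.31) is not set against these values, because Ribo-seq of the hearts chose the genes.

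The other 8 genes did not pass for TE. In RPL3L OE relative to control cells, *Hcfc1r1* (−0.21 ± 0.11, SE), *Mpc1* (−0.18 ± 0.09), *Gsn* (−0.13 ± 0.06), *Ldha* (−0.12 ± 0.07) and *Bsg* (−0.11 ± 0.06) had values below 0, and *Glul*, *Csnk2a1* and *Anapc13* values of 0.03 to 0.05. In RPL3 OE relative to control cells, the values were −0.26 ± 0.11 for *Hcfc1r1*, −0.25 ± 0.09 for *Mpc1*, −0.15 ± 0.06 for *Bsg* and −0.14 ± 0.07 for *Ldha*. The median over the 9 genes was −0.12 in RPL3L OE and −0.14 in RPL3 OE cells, compared with 0.00 in each over all transcripts tested, and 0.02 compared with 0.01 between the OE cells. Calls among the 9 genes numbered 0 in RPL3 OE relative to control cells, where edgeR called 0.052% of 13457 transcripts (1054 at an unadjusted p under 0.05 and 21 by DESeq2), and 0 between the OE cells, where it called 0.305% (1214 and 37).

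For mRNA levels in the cells, more calls were made than for TE, among the genes as among all transcripts, and the difference was not tested. Between RPL3L OE and RPL3 OE cells, 6 of 9 genes passed the test, 5 lower and *Csnk2a1* higher in RPL3L OE cells, compared with 27% of all 14432 transcripts tested. Relative to control, 2 of 9 passed in RPL3L OE cells (*Glul* lower and *Csnk2a1* higher; background 9.26%) and 3 of 9 in RPL3 OE cells (*Ldha*, *Anapc13* and *Hcfc1r1*, all higher; background 16.1%). These changes were small, the largest being 1.30-fold (*Anapc13* between the OE cells). Summed cell type markers also differed between the OE cells without overlap: RPL3 OE cells had higher sums of 9 fibroblast markers (2658 to 2690 CPM, compared with 1966 to 2008 CPM in RPL3L OE cells, where *Dpt* was at 0) and of 3 smooth muscle markers (116 to 118 and 76.3 to 82.1 CPM). RPL3L OE cells had higher sums of 5 myoblast markers (829 to 845 and 489 to 533 CPM), of 6 skeletal muscle markers (36.4 to 39.35 and 21.5 to 23.5 CPM, with *Myh2* and *Myh4* at 0 in RPL3L OE cells) and of 6 cardiomyocyte markers (275 to 296 and 248 to 254 CPM, with *Pln* and *Nppa* at 0 in both). Their part in the mRNA differences of the genes was not tested.

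*Ldha* mRNA was at 707, 736 and 699 CPM in control cells, 796, 757 and 814 CPM in RPL3 OE cells and 683, 695 and 695 CPM in RPL3L OE cells. The cultures of the 3 groups did not overlap, with RPL3 OE highest and RPL3L OE lowest, although the last lay only just below control. *Ldha* rose in RPL3 OE relative to control cells by 0.15 ± 0.03 on the log2 scale (SE; edgeR adjusted p = 0.000462, Benjamini-Hochberg) and was lower in RPL3L OE than in RPL3 OE cells, at −0.19 ± 0.03 (edgeR adjusted p = 3.8e-06, Benjamini-Hochberg). Its difference between RPL3L OE and control cells was −0.05 ± 0.03 and did not pass. *Ldha* footprints were at 1022, 1129 and 1068 CPM in control, 1038, 1022 and 1163 CPM in RPL3 OE and 998, 951 and 917 CPM in RPL3L OE cells, with RPL3L OE below both other groups.

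*Bsg* followed the same order. Its mRNA was at 522, 558 and 520.0 CPM in control, 572, 536 and 577 CPM in RPL3 OE and 515, 503 and 504 CPM in RPL3L OE cells. RPL3L OE cultures were below all others, while control and RPL3 OE cultures overlapped. The difference between RPL3L OE and RPL3 OE cells was −0.15 ± 0.03 on the log2 scale (SE; edgeR adjusted p = 0.000629, Benjamini-Hochberg). *Mpc1* mRNA was at 44.1, 47.5 and 44.3 CPM in control, 50.2, 52.7 and 50.15 CPM in RPL3 OE and 46.9, 42.1 and 40.4 CPM in RPL3L OE cells. RPL3 OE cultures were above all others, and the difference between the OE cells was −0.25 ± 0.07 (edgeR adjusted p = 0.00628, Benjamini-Hochberg), a call that was lost without RPL3L OE culture 3 (edgeR adjusted p = 0.0603).

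*Anapc13* had the largest mRNA difference of the 9 genes. It was at 20.6, 22.0 and 21.2 CPM in control, 27.6, 24.3 and 26.9 CPM in RPL3 OE and 22.1, 17.9 and 20.6 CPM in RPL3L OE cells. RPL3 OE cultures were above all others, and control and RPL3L OE cultures overlapped. *Anapc13* rose in RPL3 OE relative to control cells by 0.31 ± 0.09 on the log2 scale (SE; edgeR adjusted p = 0.00962, Benjamini-Hochberg), a call that was lost without RPL3 OE culture 1 or 3 (edgeR adjusted p = 0.0545 and 0.0814). RPL3L OE cells were lower than RPL3 OE cells, at −0.38 ± 0.10 (edgeR adjusted p = 0.00229, Benjamini-Hochberg).

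*Hcfc1r1* mRNA was at 41.1, 38.0 and 37.1 CPM in control, 42.3, 52.8 and 43.6 CPM in RPL3 OE and 35.4, 38.8 and 43.7 CPM in RPL3L OE cells. RPL3 OE culture 2 was the highest and stood apart from the others. The values were 0.26 ± 0.07 for RPL3 OE relative to control (SE; edgeR adjusted p = 0.00732, Benjamini-Hochberg) and −0.23 ± 0.08 for RPL3L OE relative to RPL3 OE cells (edgeR adjusted p = 0.0277, Benjamini-Hochberg). Without RPL3 OE culture 2, they were 0.16 and −0.12 (edgeR adjusted p = 0.194 and 0.323), and the first call was also lost without control culture 3 (adjusted p = 0.0916) and the second without RPL3L OE culture 1 or 2 (0.192 and 0.0857) and in DESeq2 (0.0733).

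Between the OE cells, *Csnk2a1* was the 1 gene of the 6 that was higher in RPL3L OE cells. Its mRNA was at 115, 107.5 and 110.4 CPM in control, 102, 109 and 101 CPM in RPL3 OE and 133, 111 and 124 CPM in RPL3L OE cells. Each RPL3L OE culture was above each RPL3 OE culture, and the difference was 0.24 ± 0.05 on the log2 scale (SE; edgeR adjusted p = 0.00017, Benjamini-Hochberg). Relative to control, *Csnk2a1* rose in RPL3L OE cells by 0.15 ± 0.05 (edgeR adjusted p = 0.0407, Benjamini-Hochberg), but this call was lost in DESeq2 (adjusted p = 0.0979) and without control culture 2 or 3, RPL3 OE culture 3 or RPL3L OE culture 1 or 3 (edgeR adjusted p = 0.0561 to 0.359), and the value was 0.09 without RPL3L OE culture 1. *Csnk2a1* footprints were at 160.0, 141 and 149 CPM in control, 151, 143 and 159 CPM in RPL3 OE and 171, 173 and 169 CPM in RPL3L OE cells, where all 3 cultures were above all others.

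*Glul* mRNA was at 64.1, 60.0 and 59.9 CPM in control, 55.65, 56.8 and 56.5 CPM in RPL3 OE and 55.1, 53.9 and 50.6 CPM in RPL3L OE cells. The cultures of the 3 groups did not overlap. *Glul* fell in RPL3L OE relative to control cells by 0.21 ± 0.06 on the log2 scale (SE; edgeR adjusted p = 0.0165, Benjamini-Hochberg), which was lost without control culture 1 (edgeR adjusted p = 0.0796) or RPL3L OE culture 3 (edgeR adjusted p = 0.128). Its value was −0.12 ± 0.06 in RPL3 OE relative to control cells and −0.09 ± 0.06 between the OE cells, and neither passed. *Gsn* and *Crip2* mRNA did not pass in any of the 3 comparisons, with *Crip2* at an edgeR adjusted p of 0.0514 (Benjamini-Hochberg) in RPL3L OE relative to control cells (0.0308 with library totals).

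RPL3L OE libraries did not overlap the RPL3 OE libraries for 6 of 10 genes in RNA-seq (37.6% of all transcripts) and for 6 of 10 in Ribo-seq (33%). Relative to control, the numbers were 5 of 10 in RNA-seq (25.4%) and 6 of 10 in Ribo-seq (28.9%) for RPL3L OE cells and 6 of 10 in RNA-seq (30.5%) and 1 of 10 in Ribo-seq (25.6%) for RPL3 OE cells. *Ckm* is among the genes counted here, with RNA-seq values of at most 1.03 CPM in each culture.

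**Figure D4:**
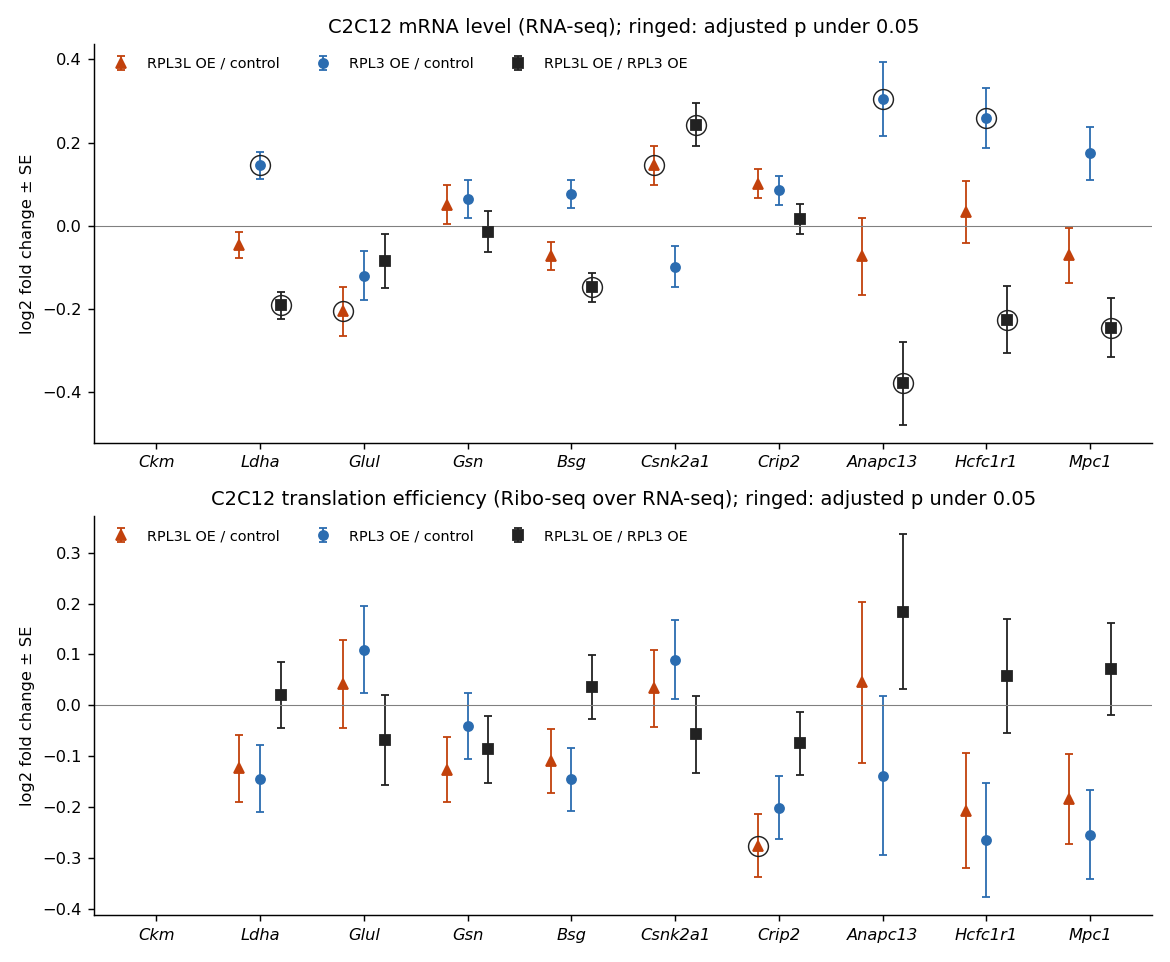
Log2 fold change (± SE) in C2C12 cells (3 cultures per group) of mRNA level (top) and TE (bottom) for RPL3L OE relative to control, RPL3 OE relative to control and RPL3L OE relative to RPL3 OE; rings mark adjusted p under 0.05 in edgeR, and *Ckm* was below the count minimum. Rings mark 11 mRNA values, of *Ldha*, *Glul*, *Bsg*, *Csnk2a1*, *Anapc13*, *Hcfc1r1* and *Mpc1*, and 1 TE value, of *Crip2*.

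WT heart and control C2C12 cells were set side by side to show how the genes differ between a tissue that uses RPL3L and a cell line that does not. The sources differed in every step from material to library, so the comparison covers all of these together. The mRNAs of 9 genes were higher in the heart and *Csnk2a1* was not called (−0.14 ± 0.14, log2 ± SE). Of all transcripts, 80.7% were called in either direction (49.2% of these higher in the heart). Of the 14 other measured genes with delayed codons, 14 were called higher in the heart, with a median log2 fold change of 4.48. Choice by codon occupancy in heart Ribo-seq needs footprints in the heart, so higher heart levels may follow from the choice. Nothing is read from these counts. *Ckm* passed the count minimum only through the heart, with 0.694 to 0.9065 CPM in the control cultures and 3048 to 3894 CPM in the hearts. Of the others, *Mpc1* (3.86 ± 0.11), *Anapc13* (3.67 ± 0.15), *Gsn* (3.53 ± 0.17) and *Glul* (2.95 ± 0.13) differed most and *Ldha* (0.73 ± 0.09) least among those called.

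These values depend on the scaling. With library totals in place of TMM factors, the median over all transcripts moved from −0.08 to −0.84 and the share of calls higher in the heart to 32.7%, *Ldha* was at −0.03 (edgeR adjusted p = 0.708, Benjamini-Hochberg), and *Csnk2a1* was called at −0.89 (edgeR adjusted p = 0.000261, Benjamini-Hochberg). Per kilobase of coding sequence, *Ldha* led the 10 mRNAs in control cells, at 659 ± 17.8 CPM per kb (SD, n = 3; rank 115 of 5895), ahead of *Crip2* (599 ± 7.14) and *Bsg* (457 ± 18.5), whereas *Ckm*, the first of the 10 in the heart, was last (0.692 ± 0.094).

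TE differed in the other direction. Because it contains Ribo-seq of the WT hearts, TE of the 10 genes is described here without a test. The log2 value of heart relative to cells was below 0 for 9 genes and above 0 for *Csnk2a1*. Its median was −1.01, compared with −0.04 over all transcripts and −1.05 over the 14 other measured genes with delayed codons. *Glul* (−0.19 ± 0.15) and *Gsn* (−0.48 ± 0.22) were nearest to 0. Over all transcripts 47.9% were called, 47.4% of these higher in the heart. With library totals that share was 71%, and the median over all transcripts moved from −0.04 to 0.32. Values of the 10 genes under that scaling are not given here, so the count below 0 is stated for TMM factors only. *Bsg* TE was 0.815 ± 0.016 (SE) in WT hearts and 1.47 ± 0.06 in control cells, with a log2 difference of −1.19 ± 0.11. *Hcfc1r1* (−1.28 ± 0.16) and *Anapc13* (−1.41 ± 0.19) differed likewise. *Csnk2a1* TE was 3.35 ± 0.37 in WT hearts and 1.35 ± 0.06 in control cells, with a log2 difference of 0.97 ± 0.16. *Ckm* (−2.01 ± 0.34) rests on 6 to 8 Ribo-seq counts per control culture and passed the Ribo-seq count minimum only through the heart.

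**Figure D5:**
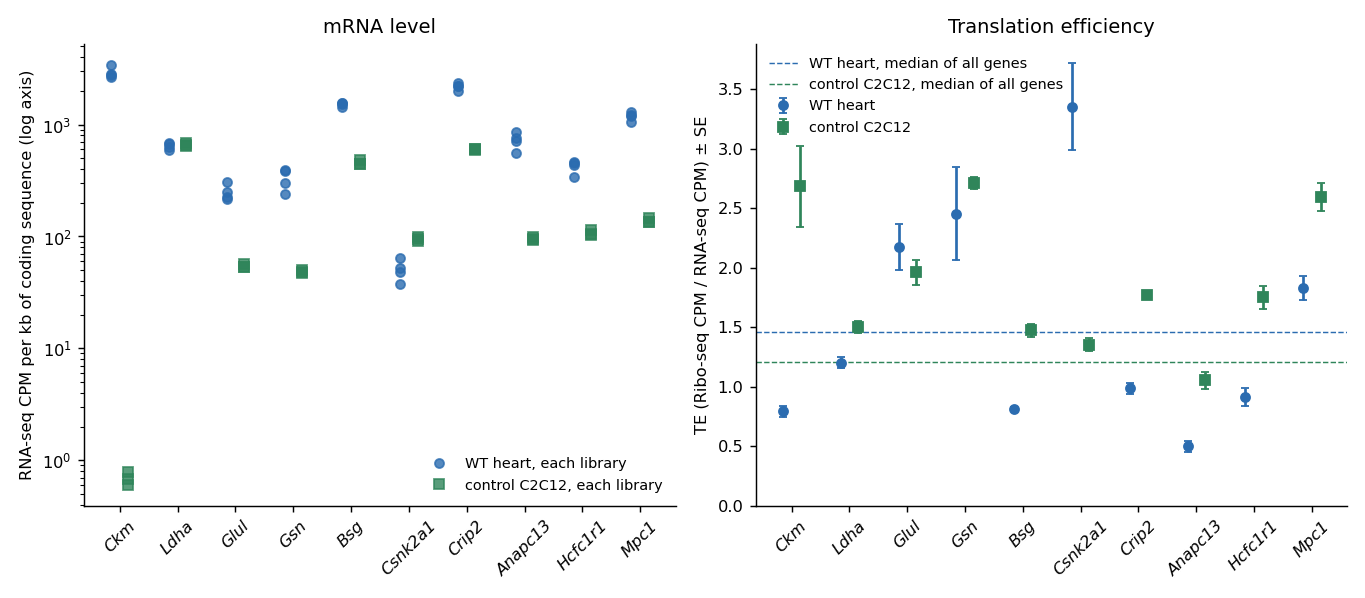
Left, RNA-seq CPM per kb of coding sequence (log axis) in each WT heart (4) and control C2C12 culture (3); right, TE (± SE) in both, with dashed lines at the median over all genes (1.46 in the heart, 1.21 in the cells). *Ckm* lies at 2917 CPM per kb on average in the heart and under 1 in the cells, and *Csnk2a1* has the highest TE of the 10 in the heart.

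m6A-seq counts RNA fragments that carry the methylated base N6-methyladenosine, here over peaks and without an input library among the deposited values, so that a peak's count also follows the amount of its mRNA. Of the 10 genes 5 had a peak, with 2 peaks each in *Glul* and *Ldha* and 1 each in *Bsg*, *Gsn* and *Ckm*. The share of all genes with a peak is not given here, so nothing is read from this count. All 7 overlapped coding exons, which follows from the study's restriction to peaks on the coding region, and 4 of them also the intron before the exon. None of the 6 peaks over the count minimum passed, and neither did any of the 2338 peaks tested (0% in edgeR and 0 in DESeq2, with 221 at an unadjusted p under 0.05 in edgeR).

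The *Ckm* peak, in exon 8, was at 100.1, 319 and 299 CPM in WT and 225, 184 and 282 CPM in KO hearts, with a log2 fold change of −0.01 ± 0.41 (SE; edgeR adjusted p = 0.993, Benjamini-Hochberg). The *Bsg* peak, in exon 8, was at 158, 157.5 and 289 CPM in WT and 305, 273 and 230.4 CPM in KO hearts (0.44 ± 0.30; edgeR adjusted p = 0.595, Benjamini-Hochberg). WT and KO hearts overlapped for both. The peak of *Glul* in exon 5 was at 80.7, 116 and 145 CPM in WT and 154, 193 and 129 CPM in KO hearts (0.51 ± 0.32; edgeR adjusted p = 0.573, Benjamini-Hochberg). The *Ldha* peaks were at 0.41 ± 0.43 and 0.69 ± 0.47 and the *Gsn* peak at −0.31 ± 0.40.

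Genes of the same pathways and families as the 10, which themselves are left out of these counts, were examined in lists. In RNA-seq and Disome-seq of KO relative to WT hearts, no gene of any list passed in edgeR: 0 of 3 tested phosphocreatine genes, 0 of 8 of glycolysis and lactate, 0 of 5 of pyruvate entry, 0 of 4 of lactate transport, 0 of 4 of glutamine metabolism, 0 of 8 of actin severing and capping, 0 of 3 of the CRIP and CSRP family, 0 of 7 of the anaphase-promoting complex and 0 of 2 HCF1 partners in RNA-seq. Far fewer could be tested in Disome-seq: 6 of glycolysis and lactate and 5 of actin severing and capping. Phosphocreatine, pyruvate entry, lactate transport, glutamine metabolism, CRIP and CSRP and HCF1 partners had 1 gene each, and the anaphase-promoting complex 0. Over all transcripts, 0.013% passed in RNA-seq and 0% in Disome-seq. Neither of the 2 other CK2 subunits was analysed here. The 14 measured genes among the others that the study listed for delayed codons, chosen on the same Ribo-seq libraries, gave 0 calls in either assay, with a median log2 fold change of 0.02 in RNA-seq (0.04 for the 10 genes) and 0.10 in Disome-seq (0.09 for 8 of the 10).

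In C2C12 RNA-seq of RPL3L OE relative to RPL3 OE cells, the genes called in the lists of glycolysis, lactate transport and pyruvate entry had lower values in RPL3L OE cells, while most genes of the first and last list did not pass, and the list medians were −0.07, −0.34 and −0.06. Of 8 glycolysis genes 3 passed, all lower: the glycolytic enzymes *Pgam1* (−0.28 ± 0.03, log2 ± SE), *Eno3* (−0.21 ± 0.03) and *Pkm* (−0.08 ± 0.03). Of 4 lactate transport genes 3 passed, all lower: the lactate transporter *Slc16a3* (−1.39 ± 0.17) and the basigin relatives *Emb* (−0.49 ± 0.19) and *Nptn* (−0.18 ± 0.04). The pyruvate dehydrogenase kinase *Pdk1* (−0.88 ± 0.12) was the 1 of 5 pyruvate entry genes that passed. *Pdk1* fell in RPL3L OE relative to control cells (−0.45 ± 0.12) and rose in RPL3 OE cells (0.43 ± 0.11), as did *Slc16a3* (−0.97 ± 0.16 and 0.42 ± 0.13). The background of this comparison was 27%, and each list's count is a description.

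Calls in the other lists went both ways between the OE cells. The adenylate kinase *Ak1* was higher (0.31 ± 0.07) and the creatine transporter *Slc6a8* lower (−0.14 ± 0.05) in RPL3L OE cells, of 2 phosphocreatine genes tested. *Csrp1* was higher (0.26 ± 0.04) and *Crip1* lower (−0.13 ± 0.04), of 3 relatives of *Crip2*. The actin capping genes *Tmod1* (0.80 ± 0.30) and *Capg* (−0.09 ± 0.03) also differed in sign, of 8. *Anapc4* (−0.18 ± 0.05) was the 1 of 7 that passed for the anaphase-promoting complex, in the direction of *Anapc13*, and 0 of 5 glutamine genes and 0 of 2 HCF1 partners passed. Of the 12 other genes with delayed codons tested, *Tnnt2* was higher (0.19 ± 0.04) and *Gpx4* (−0.15 ± 0.04) and *Cox4i1* (−0.11 ± 0.04) were lower. For TE in RPL3L OE relative to control cells, the glycolytic enzyme *Eno1* was lower (−0.24 ± 0.07), *Tnnt2*, encoding cardiac troponin T, was higher (0.50 ± 0.10), and no other gene of the lists passed.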

How the data were processed

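Counts per transcript of RNA-seq, Ribo-seq and Disome-seq were used as the authors deposited them. Per the methods and the submitters' processing notes, reads were trimmed with cutadapt, cleared of rRNA, mapped with STAR to GRCm38.p6 (mm10) with multiple mappings allowed and counted with featureCounts; versions are not given in the sources used here. Isoforms and paralogs therefore share reads. The file lists 23877 transcripts, each on 2 identical lines, of which 23662 matched GENCODE M21, all on the plus strand. Transcripts with the same coding sequence but lengths over 200 bases apart had RNA-seq counts within 1% in 97.7% of 1217 groups, so levels between genes are given per kb of coding sequence. For m6A-seq, the authors deposited counts and TPM per peak, and the TPM values served only as an alternative. These were HOMER peaks on the coding region common to the replicates of each genotype, counted with bedtools. The 2 Disome-seq columns of each mouse were summed. In all, 50 count columns and 12 m6A-seq columns were used.

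Samples were grouped by the labels, which give them as separate replicates. Features averaging 10 or more counts over the libraries of a comparison were tested with edgeR 4.0.16 (quasi-likelihood test, TMM factors, R 4.3.3), with Benjamini-Hochberg adjustment over all features and a threshold of 0.05. All C2C12 groups shared 1 fit. TE and the disome ratio were interaction terms of 1 model over both kinds of library. CPM values are counts over library sizes scaled by TMM factors, set within each tissue and assay, so that CPM of the heart and of C2C12 cells were scaled separately. Approximate 95% intervals are the log2 fold change ± the normal quantile times its SE. Ratios given as levels are ratios of group mean CPM with SE from the spread of the libraries, and they cover no other error. Alternatives were DESeq2 1.42.0, library totals, other filters, a replicate block, leaving out each library, 1 transcript per gene, the longest coding sequence, only the groups compared, and limma 3.58.1 on m6A-seq TPM. An alternative without the 12 libraries with airway markers over 100 CPM was chosen after seeing the data. Scripts were tested on simulated data with 200 changed features. Tables and plots were made with Python 3.11.15, pandas 2.3.3, NumPy 2.4.6 and matplotlib 3.10.9.

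The text names the 10 genes in each comparison, *Rpl3l*, and, from each list, up to 3 genes with the smallest p past the threshold. The genes and lists were chosen with earlier results of these data known. Same-numbered samples of different groups did not deviate together in each pair, so the numbers were not treated as pairs between groups. RNA-seq and Ribo-seq of the same number and genotype did deviate together in WT hearts (r = 0.292 to 0.391) and in KO 1 and KO 4 (0.648 and 0.492), but not in KO 2 and KO 3 (−0.592 and −0.674), and the SE of heart TE makes no use of this.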

Additional observations from a re-analysis of the deposited data

Results flagged for a closer look

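In 4 of the 60 groups of 4 hearts tested, 1 library stood far from the others, and chance alone flags about 5% of groups. *Csnk2a1* disome footprints were at 204 CPM in WT 3 and at 112.5 to 122 CPM in the other WT hearts, on 5 to 22 counts. *Anapc13* footprints were at 89.95 CPM in Ribo-seq of WT 3, compared with 74.8 to 76.7 CPM in the others. *Anapc13* had 0 disome counts in KO 4, compared with 39.9 to 78.9 CPM in the other KO hearts, and its counts in Disome-seq were too few for a test. *Hcfc1r1* mRNA was at 194.4 CPM in KO 2 and at 139 to 146 CPM in the other KO hearts.

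For 6 genes, the mRNA response of C2C12 cells to RPL3L differed from that to RPL3 in the direct edgeR comparison of the OE cells (log2 fold change, RPL3L OE relative to RPL3 OE): *Ldha* −0.19, *Bsg* −0.15, *Csnk2a1* 0.24, *Anapc13* −0.38, *Hcfc1r1* −0.23 and *Mpc1* −0.25. Of all 14432 transcripts tested, 27% were called in this comparison, so such a difference was not particular to these genes. The values of *Hcfc1r1* and *Mpc1* lost their call without single cultures.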

How the results depend on the processing

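Fits with the same numbers as pairs (replicate block) called 2 transcripts in heart RNA-seq, 109 in Ribo-seq, 0 for TE, 2 in Disome-seq (0 without the block) and 8 m6A peaks (0 without), and 240, 7 and 39 for C2C12 TE and 1157, 2166 and 3750 for C2C12 RNA-seq (RPL3L OE to control, RPL3 OE to control, RPL3L OE to RPL3 OE). It changed no call of the 10 genes, but since KO 2 and KO 3 may not be the same mice in heart RNA-seq and Ribo-seq, the block for heart TE may mix mice. Correlations of same-numbered WT and KO deviations ran from −0.579 to 0.609 in Disome-seq and from −0.413 to 0.508 in Ribo-seq. The comparisons of WT hearts with C2C12 cultures were not fitted with the block, because hearts and cultures share no source.

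With DESeq2, calls numbered 11 in heart RNA-seq (2 in edgeR), 190 in heart Ribo-seq (86), 20 for heart TE (0), 25 for the disome ratio (0), 21 for C2C12 TE of RPL3 OE to control (7, and 1 of the 10 genes against 0) and 861 for C2C12 RNA-seq of RPL3L OE to control (1336, and 1 of the 10 genes against 2). With library totals, C2C12 TE gave 13 for RPL3 OE to control and 64 for RPL3L OE to RPL3 OE (41), and *Ldha* in WT heart relative to C2C12 RNA-seq turned to −0.0302. Without a filter, Disome-seq gave 3. With only the groups compared, C2C12 TE of RPL3 OE to control gave 1. Without the libraries with airway markers, heart RNA-seq gave 4 and Ribo-seq 2.

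With 1 transcript per gene, fewer features are tested, and calls numbered 1 in heart RNA-seq, 7 in heart Ribo-seq, 114 and 15 for C2C12 TE of RPL3L OE to control and to RPL3 OE, 569, 1004 and 1584 in the 3 C2C12 RNA-seq comparisons, and 5260 (RNA-seq) and 2802 (TE) for WT heart relative to C2C12 cells.

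Leaving out each replicate in turn gave 17 to 60 calls in heart Ribo-seq, 0 to 2 in Disome-seq, 66 to 291 for C2C12 TE of RPL3L OE to control (280 with all), 3 to 74 for RPL3 OE to control, 8 to 62 for RPL3L OE to RPL3 OE and 823 to 1364 for C2C12 RNA-seq of RPL3L OE to control. Of the 10 genes it called 0 to 1 for C2C12 TE of RPL3L OE to control and 0 to 1 of RPL3 OE to control, and 0 to 3 (RPL3L OE to control) and 2 to 5 (RPL3 OE to control) in C2C12 RNA-seq.

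Of the alternative values of the 10 genes, 1823 kept their side of the threshold or stayed within the replicate spread, whatever their sign. A further 17 passed in addition, 19 no longer passed, 9 moved beyond the spread and 1 that had been called reversed. In sign, 75 values differed from the main fit and 1794 did not. The cause of these changes was not tested. Among them are fits of TE in WT hearts relative to C2C12 cells, which are described above without a test. Disome-seq, at 39016 to 175747 counts per library, limits what could be detected for *Anapc13* and *Hcfc1r1*.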
